A study of Mus musculus with 12 samples.

Results

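The genes of B lymphopoiesis followed here in neonatal mouse liver were 9: Igll1 and Vpreb1, which encode the surrogate light chain, Vpreb3, whose product binds immunoglobulin chains, Rag1, Rag2 and Dntt, which act in immunoglobulin gene recombination, the transcription factors Ebf1 and Pax5, and Il7r, the receptor chain for interleukin 7. They were chosen by name, and a rise of Dntt in dendritic cells of anemic mice had already been seen. All 9 were found among the 32285 genes of the single-cell RNA sequencing (scRNA-seq) count matrices. The 12 libraries came from 12 C57BL6/J mice, 1 liver each. In the 6 mice with phlebotomy-induced anemia (PIA), 20 µL of blood per gram was drawn from the facial vein on postnatal days 2, 4, 6, 8 and 10, with a target hematocrit of 20 to 24%, and the 6 controls received a daily needle stick without bleeding. Pups of each litter were put in the groups at random, and the litter of each mouse is not given in the labels. Livers were taken on postnatal day 11 by the labels, from mice of both sexes and with no genetic change in either group. All livers were dissociated with enzymes and spun slowly before capture, so the values describe the cells that survived this, and all libraries carry the same batch label.

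After quality filters 206146 cells remained, 14184 to 21186 per library, and the libraries held 46252146 to 74545930 unique molecular identifiers (UMIs, each one captured RNA molecule). Pairs of libraries shared 56 to 122 cell barcodes, at most 0.691% of the smaller library. The library of PIA mouse 2 stood apart: B-lineage-like cells made up 11.3% of its cells, the lowest share of the 12, and results that turn on it are given with and without it. Erythroid-like cells made up 6.80 ± 4.38% of control cells and 21.3 ± 7.05% of PIA cells (SD, n = 6 each; exact two-sided Mann-Whitney p = 0.00866).

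B cells arise from progenitors that switch on Ebf1 and then Pax5, the factors that set and hold B-lineage identity. Pro-B cells cut and rejoin the heavy chain gene with the recombinase made of Rag1 and Rag2, and Dntt, the enzyme terminal deoxynucleotidyl transferase, adds bases at the joins that no template encodes. A finished heavy chain is first shown with the surrogate light chain made of the Igll1 and Vpreb1 products, which drives a burst of division, after which the recombinase returns and the light chain gene is joined. Interleukin 7 supports survival and division of the early stages through Il7r. The liver makes B cells before and shortly after birth, before the bone marrow takes over.

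On build GRCm38, 2 pairs of the genes are neighbours. Rag1 (chr2:101638282-101649501, minus strand) and Rag2 (chr2:101624718-101632529, plus strand) are 5752 bases apart, and both lie within the span of the longer gene B230118H07Rik on the minus strand, so reads in shared sequence on that strand could not be given to Rag1 alone. Igll1 (chr16:16860671-16863985) and Vpreb1 (chr16:16868403-16870843) follow each other on the minus strand with 4417 bases between them. A close copy of Vpreb1, Vpreb2, lies further along the same chromosome (chr16:17980428-17981273), and the split of reads between these copies is uncertain. Dntt is at chr19:41029275-41059525, Vpreb3 at chr10:75943057-75949657, Il7r at chr15:9505788-9530176, Ebf1 at chr11:44617317-45008091 and Pax5 at chr4:44524757-44710487, all protein coding.

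The promoters of Igll1, Vpreb1 and Rag1 are shown because these were the genes, of the 9, whose promoter windows held one of the motifs searched. Each is 300 bases, 250 before to 50 after the RefSeq start site on build GRCm38.p6, read 5′ to 3′ on the gene's strand. Capitals mark matches, on either strand, to CCCNNGGG, the core letters bound by EBF factors, and to CAGGTG, an E-box of the kind bound by E proteins.
Igll1 (chr16:16863936-16864235, minus strand): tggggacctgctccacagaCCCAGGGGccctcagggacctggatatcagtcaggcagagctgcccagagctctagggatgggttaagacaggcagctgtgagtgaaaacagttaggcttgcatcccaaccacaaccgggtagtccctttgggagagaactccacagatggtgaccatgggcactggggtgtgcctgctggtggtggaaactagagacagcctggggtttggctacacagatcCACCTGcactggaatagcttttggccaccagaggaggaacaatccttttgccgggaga
Vpreb1 (chr16:16869206-16869505, minus strand): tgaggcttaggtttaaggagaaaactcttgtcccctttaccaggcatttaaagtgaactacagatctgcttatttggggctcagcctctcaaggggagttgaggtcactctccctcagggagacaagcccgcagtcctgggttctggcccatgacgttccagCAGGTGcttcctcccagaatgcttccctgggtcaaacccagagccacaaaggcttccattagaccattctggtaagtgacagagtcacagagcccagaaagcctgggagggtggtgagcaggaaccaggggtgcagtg
Rag1 (chr2:101649483-101649782, minus strand): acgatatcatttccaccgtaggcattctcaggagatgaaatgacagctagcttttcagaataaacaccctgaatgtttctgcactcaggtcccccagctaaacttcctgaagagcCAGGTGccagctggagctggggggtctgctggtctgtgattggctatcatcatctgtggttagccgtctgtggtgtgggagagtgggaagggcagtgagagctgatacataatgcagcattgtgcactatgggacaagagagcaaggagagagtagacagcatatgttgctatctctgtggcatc
Igll1 held 1 match to each motif, which did not overlap, and Vpreb1 and Rag1 held 1 E-box match each. Of all 32851 promoters of this length, 13.7% held CCCNNGGG and 20.2% held CAGGTG, so a match in 1 of 9 or 3 of 9 genes is a description of these windows and says nothing about binding.

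B-lineage-like cells numbered 42037, with 2012 to 4530 per mouse. They were found by clustering all cells with the 9 genes left out of the genes that shaped the clusters, and were then clustered again and put in order by markers outside the 9. Thresholds on Erg, Ms4a1, Top2a, Ighd and Fcer2a defined the stages, so the levels of these genes given here follow from the grouping. The 2738 pro-B-like cells carried Erg at 664 ± 62.0 CPM (UMI counts scaled to a common total in each mouse and cell group; mean ± SD over 12 mice) and the stem cell factor receptor Kit at 251 ± 43.6 CPM. The 9135 cycling pre-B-like cells carried the replication enzyme Top2a at 1724 ± 173 CPM, and the 10536 resting pre-B-like cells carried it at 14.2 ± 6.02 CPM and the receptor chain Il2ra at 166 ± 23.8 CPM. The 5218 immature B-like cells had gained the surface protein Ms4a1 (1011 ± 140 CPM), and the 8381 naive B-like cells also Ighd, the heavy chain of IgD, at 345 ± 33.6 CPM. A further 4391 cells with Ms4a1, in clusters led by Jchain or by S100a6 and Ahnak, were kept apart as other Ms4a1+ B cells. Another 1638 cells in 3 clusters led by hepatocyte, erythroid or endothelial genes were counted as B-lineage-like and used in no stage.

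The 9 genes separated along this order, and their highest levels fell in different stages. Since cells were grouped by their RNA, these levels are descriptions with no test, and levels are compared within a gene only.

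**Figure D1:**
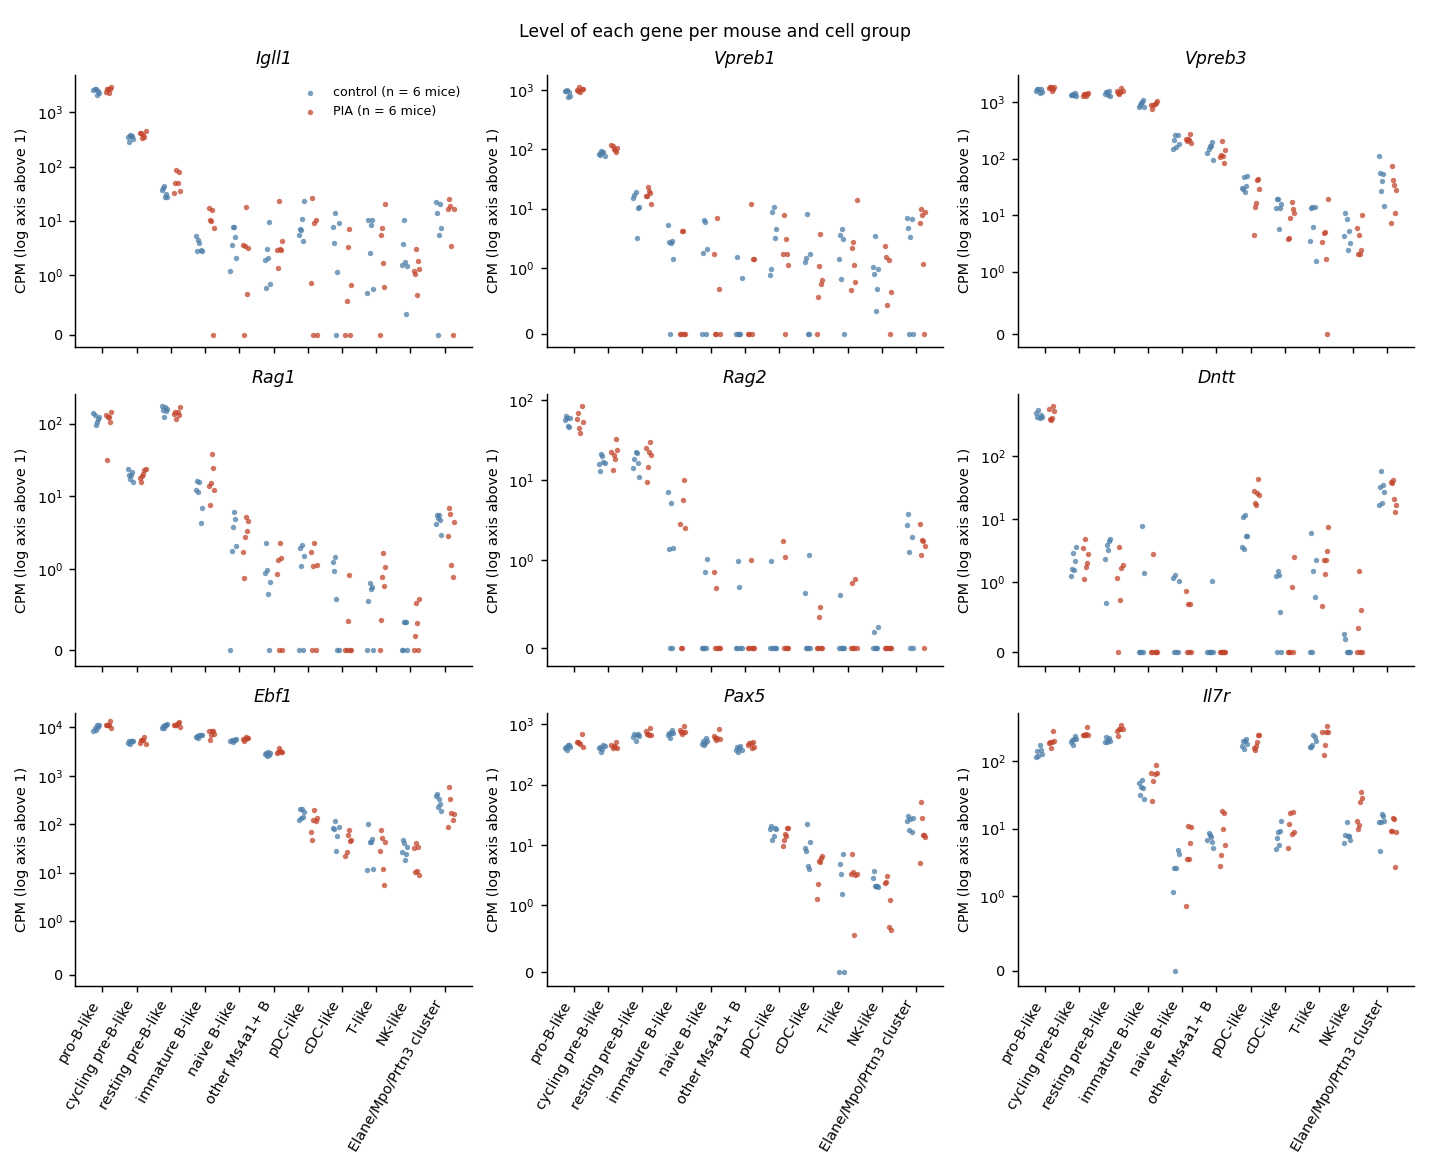
Level of each of the 9 genes (CPM, log axis above 1) in each mouse and cell group, with 1 point per mouse, 6 control and 6 PIA. Igll1 and Vpreb1 fall steeply from pro-B-like cells, Rag1 is high, low and high again in pro-B-like, cycling and resting pre-B-like cells, Ebf1 and Pax5 stay up in all B stages, and Il7r is also high in plasmacytoid dendritic-like (pDC-like) and T-like cells.

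Igll1, the lambda5 part of the surrogate light chain, stood at 2578 ± 258 CPM in pro-B-like cells, 368 ± 45.2 CPM in cycling pre-B-like cells and 45.1 ± 19.1 CPM in resting pre-B-like cells (SD over 12 mice). The ranges of neighbouring stages in this order did not overlap between mice. Vpreb1, which encodes its other part, followed the same order at 971 ± 103, 95.2 ± 12.5 and 15.1 ± 5.41 CPM. In pro-B-like cells 86.7% of the 2614 cells with an Igll1 UMI also held a Vpreb1 UMI, against 21.8% of the cells without one, whose median depth was lower (1382 against 2214 UMIs). In immature B-like and later cells both genes stood at or under 6.79 CPM, within the range of T-like cells (Igll1 5.69 ± 6.04 CPM). Pro-B-like cells held 51.1% of all Igll1 UMIs and 57.2% of all Vpreb1 UMIs.

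Vpreb3, whose product associates with immunoglobulin chains during their assembly, was kept much longer. It stood at 1686 ± 124 CPM in pro-B-like, 1357 ± 61.4 CPM in cycling pre-B-like, 1479 ± 125 CPM in resting pre-B-like and 913 ± 92.2 CPM in immature B-like cells, and the first 3 overlapped between mice. In naive B-like cells it was 211 ± 38.7 CPM, below every value of the immature stage.

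Rag1 had 2 peaks with a trough between them. It stood at 115 ± 29.8 CPM in pro-B-like cells, 19.8 ± 2.91 CPM in cycling pre-B-like cells and 147 ± 18.4 CPM in resting pre-B-like cells, then at 14.9 ± 8.93 CPM in immature B-like cells. Resting pre-B-like cells held 42.9% of all 4946 Rag1 UMIs. Rag2 did not share the peak in resting pre-B-like cells: it was 56.5 ± 12.2 CPM in pro-B-like cells, 19.5 ± 5.46 CPM in cycling and 18.8 ± 6.03 CPM in resting pre-B-like cells, and the last pair overlapped. The cycling stage was a mix, with Rag2 at 2.83, 15.4, 30.8 and 53.5 CPM in its clusters, beside 72.4 and 38.2 CPM in the pro-B-like clusters. With B-lineage-like cells clustered more finely, a cycling cluster reached 85.2 CPM, above both pro-B-like clusters there (70.5 and 38.8 CPM). With 1770 Rag2 UMIs in all libraries, Rag2 was the most thinly counted of the 9.

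Dntt was close to a pro-B gene. It stood at 459 ± 76.9 CPM in pro-B-like cells and at 2.41 ± 1.11 CPM in cycling pre-B-like cells, and pro-B-like cells held 71.7 ± 10.5% of its UMIs (78.5% in controls and 64.85% in PIA mice). In pro-B-like cells 57.6 ± 3.88% of control cells and 57.8 ± 7.16% of PIA cells held a Dntt UMI (SD, n = 6 mice each), against 0.199 ± 0.108% of control hepatocyte-like cells, with median depths of 2182 and 1218 UMIs. An unnamed cluster led by the granule protein genes Elane, Mpo and Prtn3, outside the B lineage, came next at 29.1 ± 13.1 CPM, and held 10.1 ± 9.20% of the Dntt UMIs (5.77% in controls and 14.5% in PIA mice). Its Dntt level was 30.7 ± 14.8 CPM in controls and 27.6 ± 12.4 CPM in PIA mice, and the groups overlapped. pDC-like cells followed at 16.2 ± 12.2 CPM.

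Ebf1 and Pax5 marked every B stage. Ebf1 stood at 11146.5 ± 916 CPM in resting pre-B-like cells and 3043 ± 319 CPM in other Ms4a1+ B cells, the highest and lowest B stages. Outside the B lineage, among the cell groups summarised, it was highest in stellate-like cells, the vitamin A storing cells of the liver, at 434 ± 143 CPM. A cluster led by the smooth muscle genes Acta2 and Tagln reached 1335 CPM with the B marker Cd79a at 10.05 CPM. Its marker score gave it the name megakaryocyte, though no marker of that class was among its leading genes. The 5 clusters outside the B lineage with more Ebf1, 2223 to 4519 CPM, also held Cd79a at 394 to 688 CPM. Pax5 ran from 742 ± 88.1 CPM in immature B-like cells to 424 ± 40.8 CPM in cycling pre-B-like cells, and neighbours in its order overlapped. Among the other cell groups summarised, Pax5 was highest in the cluster led by Elane, at 22.6 ± 11.9 CPM.

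Il7r was the gene of the 9 that was least tied to B cells. Of its 24507 UMIs 60.1 ± 10.3% came from B-lineage-like cells, 16.5 ± 5.39% from T-like cells and 9.40 ± 1.71% from pDC-like cells, whereas B-lineage-like cells held between 75.7% and 90.5% of the UMIs of each of the other 8 genes. It stood at 251 ± 51.7 CPM in resting pre-B-like, 233 ± 37.5 CPM in cycling pre-B-like, 219 ± 61.6 CPM in T-like, 191 ± 33.3 CPM in pDC-like and 171 ± 47.1 CPM in pro-B-like cells, each overlapping with the next. It fell to 50.2 ± 18.9 CPM in immature B-like and 4.26 ± 3.52 CPM in naive B-like cells.

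Across all 61 clusters of the 12 libraries, and among 15098 other genes, the genes whose log2 level followed each gene most closely were mostly B genes or unnamed transcripts. Vpreb3, Ebf1 and Pax5 had Cd79a, which encodes the signaling chain of the B-cell receptor, and Pou2af1, a B-cell coactivator, among their nearest 3 (Pearson r of 0.94 to 0.98 over clusters). Igll1 and Vpreb1 followed each other at r = 0.98. Dntt lay closest to Arpp21 at r = 0.90, and Il7r to the progenitor factor Myb at r = 0.88. Clusters share libraries and depth, so these values are descriptions only.

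The comparison of PIA with control mice asks how blood loss alters the immune and blood-forming cells of the neonatal liver. It used UMIs summed per mouse, so that each mouse is 1 replicate, with edgeR's quasi-likelihood test over all genes averaging 5 UMIs or more in a mouse and Benjamini-Hochberg adjustment over them. A gene is said to rise or fall where the adjusted p is under 0.05.

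In whole libraries all 9 genes were lower in PIA mice and none passed the test, where 6.92% of all genes tested were called. Rag1 had the steepest value: the 6 controls ran from 7.05 to 9.92 CPM with a median of 8.71, and the 6 PIA mice from 1.63 to 8.26 CPM with a median of 5.26, a log2 fold change of -0.59 ± 0.26 (SE; edgeR adjusted p = 0.19). Vpreb3 gave -0.58 ± 0.23 (edgeR adjusted p = 0.149), and Il7r and Dntt were near 0 at -0.02 ± 0.15 and -0.06 ± 0.25. The lowest PIA value of each of the 9 genes belonged to mouse 2, and without that mouse Rag1 was at -0.41, Vpreb3 at -0.42, Il7r at 0.10 and Dntt at 0.10, none past the threshold (edgeR adjusted p = 0.175, 0.132, 0.613 and 0.81). Ebf1 was the one gene of the 9 whose groups did not overlap (log2 fold change -0.31 ± 0.17, -0.17 without PIA mouse 2), at 1058 to 1393 CPM in controls and 382 to 1020 CPM in PIA mice, and 11.4% of all genes tested were likewise lower without overlap. Without the scaling by trimmed means, which moves the median of all genes from 0.03 to -0.21 on the log2 scale, Vpreb3 and Pax5 were called lower (-0.80 and -0.49, edgeR adjusted p = 0.0388 and 0.049). By limma voom with quality weights Rag1 was called lower (-0.56, limma voom adjusted p = 0.0265). In sums over all captured cells of a library, a smaller share of B cells and less RNA per B cell cannot be told apart.

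The share of B-lineage-like cells did differ: they were 27.5 ± 1.66% of control and 20.05 ± 4.33% of PIA cells once erythroid-like cells were left out of the total (exact two-sided Mann-Whitney p = 0.00217, n = 6 each), with no overlap and with PIA mouse 2 lowest at 12.4%. Within B-lineage-like cells none of the 9 genes passed the test, where 1.41% of all genes were called, and the fold changes ran from -0.21 ± 0.14 for Rag1 to 0.21 ± 0.08 for Pax5 (log2, SE; edgeR adjusted p = 0.409 and 0.159).

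**Figure D2:**
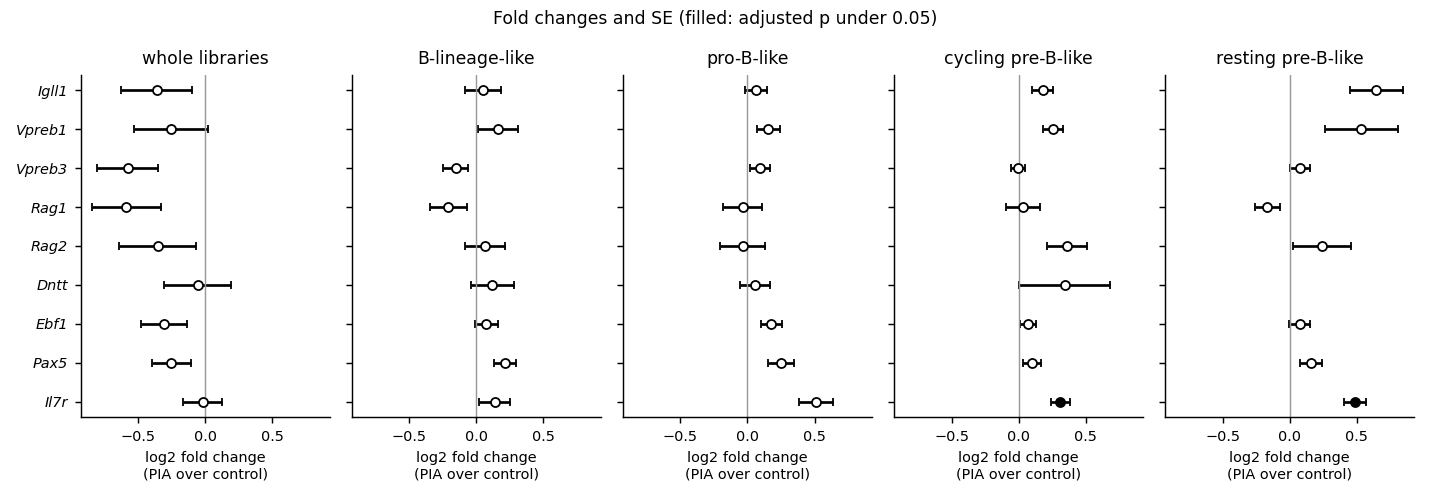
log2 fold change of PIA over control with its SE for each of the 9 genes in whole libraries, B-lineage-like cells and the 3 early stages, from 6 mice a group. Points sit below 0 in whole libraries and near 0 in B-lineage-like cells, and the filled points, those past the threshold, are Il7r in cycling (0.31) and resting (0.49) pre-B-like cells; Dntt had too few UMIs to test in resting pre-B-like cells.

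Stage by stage, Il7r rose in pre-B-like cells of PIA mice. In resting pre-B-like cells the controls ran from 191 to 229 CPM with a median of 204, and the PIA mice from 238 to 341 CPM with a median of 300.2. All 6 PIA mice stood above all 6 controls. The rise was 1.40-fold, a log2 fold change of 0.49 ± 0.08 (SE; edgeR adjusted p = 0.000655), 1 of 8 genes tested of the 9. There 2.41% of all genes were called, 0.775% as higher, and 0.755% stood higher without overlap. It passed the test under each of 24 alternatives, among them leaving out each mouse.

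In cycling pre-B-like cells the controls ran from 176 to 239 CPM with a median of 209, and the PIA mice from 243 to 321 CPM with a median of 248. The groups again did not overlap, and the log2 fold change was 0.31 ± 0.07 (edgeR adjusted p = 0.0307, 1 of 9 genes). There 1.43% of all genes were called, 0.537% as higher, and 0.758% stood higher without overlap. This call was narrow: it was lost without control mouse 1, 2, 3 or 6 or without PIA mouse 4 or 5 (edgeR adjusted p from 0.0502 to 0.0922), and the value fell to 0.25 at the lowest. PIA mouse 5 had the highest level in this stage, and the other 5 PIA mice lay between 243 and 254 CPM.

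In pro-B-like cells the controls ran from 114 to 175 CPM with a median of 137, and the PIA mice from 155 to 285 CPM with a median of 196. Of the 6 PIA mice 5 stood above every control, and the log2 fold change was 0.51 ± 0.12 with an edgeR adjusted p of 0.0515, just outside the threshold, in a stage where 0.482% of all genes were called, 0.153% as higher. It was past the threshold in 9 of 23 alternatives, among them without control mouse 4 or PIA mouse 3 (edgeR adjusted p = 0.023 and 0.0174). In immature B-like cells, where Il7r is on its way down, the value was 0.54 ± 0.20 (edgeR adjusted p = 0.273), and with B-lineage-like cells clustered more finely, at resolution 2 in place of 1, it was called at 0.99 (edgeR adjusted p = 0.00052). At resolution 2 that stage joined a cluster at 84.5 CPM (1885 control, 1117 PIA cells) and another at 7.56 CPM (2290 and 871). The part of this mix in the call was not tested.

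**Figure D3:**
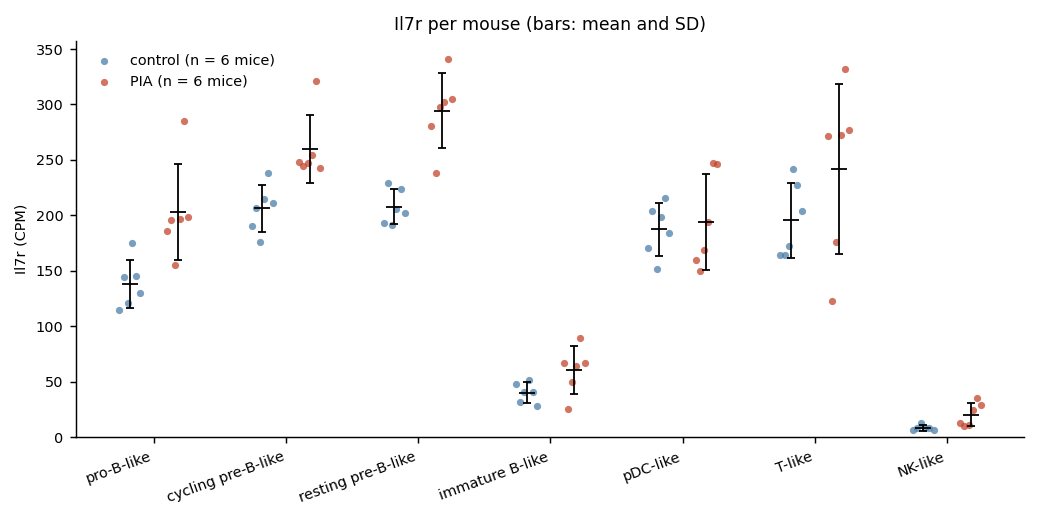
Il7r level (CPM, axis from 0) in each mouse, 6 control and 6 PIA, in 4 B stages and in pDC-like, T-like and NK-like cells, with bars for mean and SD. The PIA mice lie above the controls without overlap in cycling and resting pre-B-like cells, and the groups overlap in the other cell groups shown.

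Inside the 9 clusters that make up the early stages Il7r passed an exact two-sided Mann-Whitney test in 6 and not in 3. This comparison was chosen after the values were seen, and the clusters hold the same mice and cells as the stages. The adjustment ran over the 9 clusters and not over all genes, and the share of all genes passing in them was not computed. In the resting cluster with the most cells (6726) Il7r was 234 ± 26.7 CPM in controls and 318 ± 24.7 CPM in PIA mice, and in the next (2958 cells) 131 ± 15.5 and 185 ± 16.5 CPM (exact two-sided Mann-Whitney adjusted p = 0.013 and 0.00974 over 9 early clusters). The first of these held 704 of the 736 cells of a Jchain-led cluster found at resolution 2, in which 647 cells were from control and 89 from PIA mice and Il7r was 195 CPM. With that Jchain-led cluster left out of the stage, an alternative chosen after the data were seen, Il7r in resting pre-B-like cells was at 0.48 (edgeR adjusted p = 0.000833). A cycling cluster of large cells with a median of 9570 UMIs, led by Nrgn and Srm and with Igll1 at 903 CPM, was at 139 ± 10.8 and 151 ± 32.7 CPM (adjusted p = 0.937, exact). The other two that did not pass were a cycling cluster at 252 ± 18.4 and 293 ± 38.0 CPM and the smallest resting cluster at 259.7 ± 12.2 and 359.9 ± 73.1 CPM (adjusted p = 0.073 for each, exact). Per cell, 21.2 ± 1.65% of control and 29.3 ± 3.82% of PIA resting pre-B-like cells held an Il7r UMI. Thinned to 1000 UMIs per cell, with 1279 control and 552 PIA cells left out as too shallow, the shares were 18.1 ± 1.26% and 22.9 ± 1.78%, against 0.158 ± 0.0655% and 0.182 ± 0.171% in hepatocyte-like cells.

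RNA of other cell types moved in these stages too. In resting pre-B-like cells 5 of 6 hepatocyte markers fell, with a summed level of 4071 to 5365 CPM in controls and 879 to 3413 CPM in PIA mice, and 2 of the 3 erythroid markers tested, of 8 listed, rose, with a summed level of 823 to 1928 CPM and 1986 to 3642 CPM. None of these 2 lists' genes was at 0 in all mice, and the part of this RNA in the Il7r result was not tested. In cycling pre-B-like cells 4 of 6 hepatocyte markers fell (summed 1421 to 2057 and 340.5 to 1316 CPM) and 2 of 4 erythroid markers tested rose (323 to 858 and 682 to 1834 CPM), and in pro-B-like cells 3 of 6 hepatocyte markers fell. The T-cell marker Cd3e stood in resting pre-B-like cells at 2.16 ± 0.984 CPM in controls and 0.959 ± 1.24 CPM in PIA mice, against 892 ± 96.8 CPM in control T-like cells.

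In other Il7r-bearing cells the effect was not the same size everywhere. In pDC-like cells Il7r was 187 ± 23.6 CPM in controls and 194 ± 43.2 CPM in PIA mice, a log2 fold change of 0.05 ± 0.13 (edgeR adjusted p = 0.934). The effect in resting pre-B-like cells exceeded that in pDC-like cells by 0.46 on the log2 scale, and the effect in pro-B-like cells did so by 0.51 (exact two-sided Mann-Whitney on the per-mouse log2 ratio, adjusted p = 0.0195 for both over 9 pairs of cell groups). The difference between cycling pre-B-like and pDC-like cells, 0.30, did not pass (exact adjusted p = 0.117). In T-like cells it was 196 ± 33.8 and 242 ± 77.0 CPM (0.31 ± 0.18, edgeR adjusted p = 0.758), and the difference from resting pre-B-like cells, 0.25, did not pass (exact adjusted p = 0.348). None of 5 genes tested in T-like cells was called, where 0.46% of all genes were. In NK-like cells, which also carried Cd3e at 627 ± 49.6 CPM in controls, Il7r was low: 8.19 ± 2.29 CPM in controls and 20.4 ± 10.6 CPM in PIA mice, and 4 PIA mice lay above every control (1.31 ± 0.31, edgeR adjusted p = 0.084, where 0.449% of all genes were called, 0.205% as higher). It was called higher by DESeq2 (adjusted p = 0.00498) and by limma voom (adjusted p = 0.0331), and by edgeR without PIA mouse 2 (adjusted p = 0.0374). In NK-like cells 2 of 6 erythroid markers tested rose, with a summed level of 1114 to 10890 CPM in controls and 6357 to 22950 CPM in PIA mice. None of the NK, T-cell and hepatocyte markers there was called, with summed levels of 4017 to 5022 and 5034 to 7648 CPM for NK, 1819 to 2166 and 1046 to 1897 CPM for T-cell and 2568 to 3824 and 428 to 2562 CPM for hepatocyte markers, and the part of these in the Il7r value was not tested.

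The surrogate light chain genes were not called in any stage where they were tested. Igll1 in resting pre-B-like cells ran from 27.6 to 44.5 CPM with a median of 34.4 in controls and from 32.1 to 85.1 CPM with a median of 49.7 in PIA mice, which overlapped, a log2 fold change of 0.64 ± 0.20 (edgeR adjusted p = 0.0904). It passed the test without PIA mouse 1 or 6 (edgeR adjusted p = 0.0357 and 0.0361). Vpreb1 there was 12.5 ± 5.72 CPM in controls and 17.8 ± 3.91 CPM in PIA mice (0.53 ± 0.27, edgeR adjusted p = 0.379), and it was called with the 9 genes kept for clustering (1.06, edgeR adjusted p = 0.0249). Vpreb1 in cycling pre-B-like cells was 85.9 ± 6.46 CPM in controls and 105 ± 9.79 CPM in PIA mice (0.26 ± 0.07, edgeR adjusted p = 0.0935), and 5 of 6 PIA mice stood above every control. It passed without control mouse 3 or PIA mouse 5 (edgeR adjusted p = 0.0481 and 0.0479). In pro-B-like cells, where both are highest, the values were 0.07 ± 0.08 for Igll1 and 0.16 ± 0.08 for Vpreb1 (edgeR adjusted p = 0.887 and 0.616). In the smaller of the 2 pro-B-like clusters (784 cells) Vpreb1 was 567 ± 52.6 CPM in controls and 684 ± 45.2 CPM in PIA mice, with all 6 PIA mice above every control (exact two-sided Mann-Whitney adjusted p = 0.0195), 1 of 9 early clusters to pass, and Igll1 passed in 0 of 9. That adjustment ran over the 9 clusters and not over all genes, and 1 mouse gave only 22 cells. The share of all genes standing higher without overlap in this cluster was not computed. Igll1 in immature B-like cells had too few UMIs for the test, and was called at resolution 2 and with the 9 genes kept for clustering (1.84 and 2.08, edgeR adjusted p = 0.00748 and 0.0103). At resolution 2 the clusters of that stage held Igll1 at 11.2 and 5.545 CPM, and the part of their mix was not tested. Vpreb3 lay between -0.02 and 0.11 in the stages from pro-B-like to naive B-like.

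None of the recombination genes was called in any B stage as first clustered. Rag1 was 119 ± 16.6 CPM in control and 110 ± 40.3 CPM in PIA pro-B-like cells (-0.04 ± 0.15, edgeR adjusted p = 0.985), and the lowest PIA value of 31.9 CPM belonged to mouse 2, whose pro-B-like cells numbered 77. Without that mouse the value was 0.06. In resting pre-B-like cells Rag1 was 155 ± 17.4 and 139 ± 17.4 CPM (-0.17 ± 0.10, edgeR adjusted p = 0.452). Rag2 in cycling pre-B-like cells was 17.1 ± 2.92 and 21.9 ± 6.59 CPM (0.36 ± 0.15, edgeR adjusted p = 0.296). Rag1 in immature B-like cells, with 47 control and 56 PIA UMIs, was 11.2 ± 4.75 and 18.6 ± 10.9 CPM (0.79 ± 0.35, edgeR adjusted p = 0.379), and at resolution 2 it was called (1.08, edgeR adjusted p = 0.0231). At resolution 2 the clusters of that stage held Rag1 at 21.7 and 11.6 CPM, and the part of their mix was not tested. Dntt in pro-B-like cells ran from 391 to 537 CPM in controls and from 371 to 610 CPM in PIA mice, a log2 fold change of 0.05 ± 0.11 (edgeR adjusted p = 0.948). In the later stages none of the genes tested was called: 0 of 5 in immature B-like, 0 of 3 in naive B-like and 0 of 4 in other Ms4a1+ B cells, where 1.19%, 2.11% and 0.51% of all genes were. Ebf1 and Pax5 were not called in any stage, and Pax5 had values from 0.10 to 0.29 in the 6 stages.

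Dntt differed between the groups in plasmacytoid dendritic-like cells, the interferon-producing dendritic cells, which numbered 3681 and carried their marker Siglech at 1146 ± 139 CPM. This gene was taken up here because of that rise, so its values are a description. Control levels were 3.32 to 11.7 CPM with a median of 5.32, from 41 UMIs in 6 mice, and PIA levels were 16.3 to 43.5 CPM with a median of 24.5, from 144 UMIs. All 6 PIA mice stood above all 6 controls, at a log2 fold change of 1.91, and 0.45% of all genes stood higher without overlap. A Dntt UMI was found in 39 of 1981 control cells and in 118 of 1700 PIA cells, and no cell held more than 6. Thinned to 1000 UMIs per cell the shares were 0.743 ± 0.409% and 2.45 ± 0.701%, against 0.0862 ± 0.0607% and 0.0486 ± 0.0463% in hepatocyte-like cells.

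**Figure D4:**
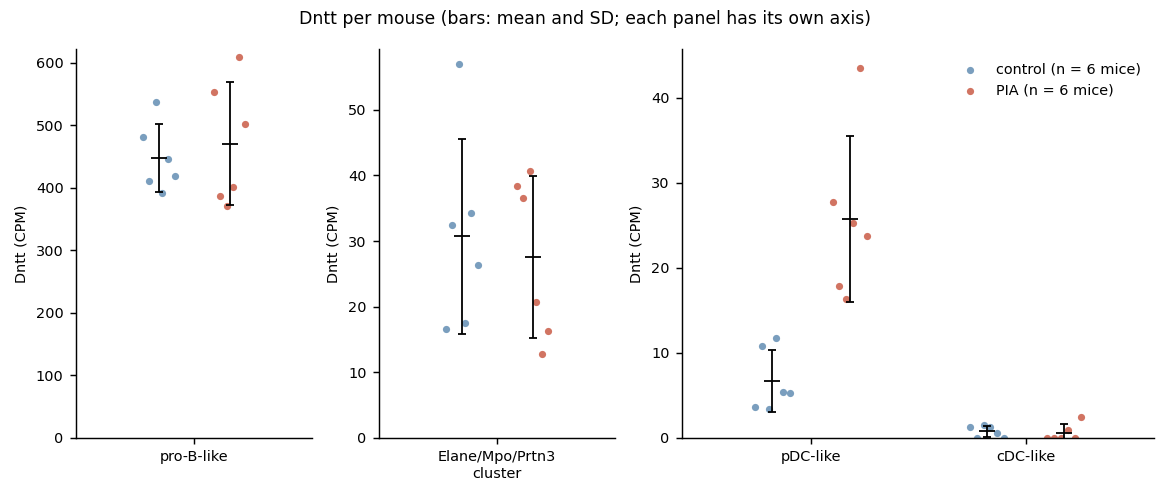
Dntt level (CPM, each panel with its own axis from 0) in each mouse, 6 control and 6 PIA, in pro-B-like cells, the cluster led by Elane, Mpo and Prtn3, and pDC-like and conventional dendritic-like (cDC-like) cells, with bars for mean and SD. In pDC-like cells every PIA mouse (16.3 to 43.5 CPM) lies above every control, and elsewhere the groups overlap.

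The pDC-like cells with Dntt were compared with those without for the marker of these cells and for B-lineage RNA. In PIA mice 95.8% of them held a Siglech UMI, against 93.7% of pDC-like cells without Dntt, with median depths of 3096 and 2958 UMIs. B-lineage RNA was found more often beside Dntt: a UMI of Cd79a, Igll1 or Vpreb1 was in 8 of 39 control cells with Dntt (20.5%) and in 11 of 118 PIA cells (9.32%), against 4.53% and 3.60% of those without. With all cells that held such a UMI left out, an alternative chosen after the data were seen, the log2 fold change of Dntt was 1.98. Summed B-lineage markers ran from 1628 to 1786 CPM in controls and 1442 to 1802 CPM in PIA mice in pDC-like cells, with 0 of 6 tested called, and Cd79a was 33.0 ± 6.63 and 29.2 ± 11.4 CPM. Early B progenitor markers summed to 394.5 to 447.7 CPM in controls and 346 to 518.6 CPM in PIA mice, and 1 of 9 tested fell. Of the 6 hepatocyte markers 2 fell there, with a summed level of 2141 to 4077 and 601 to 2322 CPM, and 3 of 7 macrophage markers fell (summed 146 to 732 and 160 to 397 CPM). Of 4 erythroid markers tested none was called, with a summed level of 337 to 8825 CPM in controls and 3741 to 24210 CPM in PIA mice, and the part of other cells' RNA in the Dntt levels was not tested. Of the Dntt-bearing cells 7 of 39 and 20 of 118 were called doublets, beside 15.5% of all pDC-like cells.

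The rest of the recombination set was close to silent in these cells. Rag1 gave 7 UMIs in each group and Rag2 gave 1 and 3, under the filter for a test. In conventional dendritic-like cells, which present antigen and carried Xcr1 at 209 ± 34.0 CPM, Dntt gave 7 control and 5 PIA UMIs among 3754 cells, and 0 of 5 other genes tested were called, where 1.27% of all genes were. With both dendritic classes summed, 0 of 6 other genes were called, where 0.986% of all genes were. Of the 5 other genes tested in pDC-like cells none was called, where 1.3% of all genes were, and Ebf1 was 166 ± 37.2 and 114 ± 51.2 CPM (-0.53 ± 0.23, edgeR adjusted p = 0.302).

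Genes that act beside the 9 gave few calls. Of 13 genes of recombination and end joining, 1 fell in whole libraries, the end-joining factor Nhej1 (-0.82 ± 0.21, edgeR adjusted p = 0.0364), where 3.75% of all genes were called lower. None of the 13 was called in any cell group. Of 15 genes of IL-7 signaling, 2 rose in B-lineage-like cells, Stat5b, which carries the receptor's signal to the nucleus (0.34 ± 0.08, edgeR adjusted p = 0.0435), and the survival gene Bcl2 (0.90 ± 0.20, edgeR adjusted p = 0.0378), where 0.69% of all genes were called higher. Neither was called in any single stage. Naive B-like cells were 15.8% of the B-lineage-like cells of controls and 27.1% of those of PIA mice, and 1 of 7 erythroid markers rose (summed 734 to 3676 and 3478 to 6757 CPM) beside summed hepatocyte markers of 2896 to 4187 and 743 to 2788 CPM, and the part of these in the values over all B-lineage-like cells was not tested. Cyclin D3, Ccnd3, rose in resting pre-B-like cells from 538 ± 36.9 to 786 ± 80.0 CPM (0.52 ± 0.08, edgeR adjusted p = 0.000226), with all 6 PIA mice above all controls. Ccnd3 also rose in immature B-like (0.55 ± 0.09), naive B-like (0.54 ± 0.12) and other Ms4a1+ B cells (0.84 ± 0.17; edgeR adjusted p = 0.000528, 0.0136 and 0.0139), where 0.321%, 0.664% and 0.187% of all genes were called higher. In other Ms4a1+ B cells 2 of 3 erythroid markers tested rose (summed 572 to 1078 and 1499 to 2712 CPM) and 2 of 6 hepatocyte markers fell (summed 2170 to 2940 and 501 to 1929 CPM), and their part was not tested. The list's median log2 fold change in resting pre-B-like cells was 0.16 over 10 genes tested and in immature B-like cells -0.04 over 10, beside 0.01 over all genes in each.

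Of 16 B-lineage transcription factors, 2 rose in cycling pre-B-like cells, Lef1, which the T-cell marker list also holds (0.32 ± 0.08) and Erg (0.82 ± 0.20; edgeR adjusted p = 0.0282 and 0.0388), 1 in resting pre-B-like cells, Bcl11a (0.42 ± 0.10, edgeR adjusted p = 0.0198), and none fell in any cell group. Erg, the gene by which pro-B-like cells were told apart, and Lef1 are both on the list of early B progenitor markers, of which 2 of 9 rose in cycling pre-B-like cells (summed 2999 to 3836 and 3308 to 3638 CPM), and the part of such cells in the Il7r and Vpreb1 values of that stage was not tested. In these stages 0.537% and 0.775% of all genes were called higher. Ikzf3, an Ikaros family factor, rose in B-lineage-like (0.38 ± 0.08), immature (0.30 ± 0.08) and naive B-like cells (0.39 ± 0.09; edgeR adjusted p = 0.0402, 0.0498 and 0.0305). Pou2af1 rose in immature (0.42 ± 0.10) and naive B-like cells (0.50 ± 0.08; edgeR adjusted p = 0.0178 and 0.0014), and Ikzf1 in naive B-like cells (0.39 ± 0.09, edgeR adjusted p = 0.0255), so that 2 of 15 genes tested rose in immature and 3 of 15 in naive B-like cells, beside the 0.321% and 0.664% of all genes. Of 16 receptor genes, 4 fell in whole libraries, Ighm, Igkc, Blnk and Cd79b (-0.57 ± 0.13, -0.50 ± 0.11, -0.56 ± 0.15 and -0.56 ± 0.15; edgeR adjusted p = 0.0198, 0.0191, 0.0379 and 0.0458), where 3.75% of all genes were called lower. Over all B-lineage-like cells Ighd, one of the genes by which naive B-like cells were told apart, rose (0.57 ± 0.13, edgeR adjusted p = 0.0398), and it was called in no single stage. In dendritic-like cells Igkc fell (-0.70 ± 0.15, edgeR adjusted p = 0.0368), as it did in conventional dendritic-like cells (-1.53 ± 0.33, edgeR adjusted p = 0.0341). There 0.986% and 1.27% of all genes were called in either direction. In dendritic-like cells 1 of 7 macrophage markers fell and 0 of 6 hepatocyte markers were called, with summed hepatocyte levels of 1720 to 3044 CPM in controls and 424 to 2310 CPM in PIA mice, and their part was not tested. In conventional dendritic-like cells 1 of 4 erythroid markers tested rose (summed 964 to 6481 and 4099 to 15020 CPM). There 0 of 6 hepatocyte markers were called (summed 1469 to 2357 and 309 to 2322 CPM), and their part was not tested. Last, in NK-like cells, where erythroid markers moved as given above, Cd24a rose (1.25 ± 0.23, edgeR adjusted p = 0.0245). There 0.205% of all genes were called higher.

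Of 6 niche signals none was called in whole libraries, and Il7 stood at 0.466 ± 0.135 CPM in controls and 0.646 ± 0.307 CPM in PIA mice. Its highest class was hepatocyte-like cells, at 3.08 ± 1.26 and 3.12 ± 0.675 CPM. In resting pre-B-like cells 2 of 2 tested were lower, the chemokine Cxcl12 (-1.11 ± 0.27) and the growth factor Igf1 (-0.96 ± 0.24; edgeR adjusted p = 0.0221 and 0.0281). There 2.41% of all genes were called in either direction, and hepatocyte markers moved with these 2 as given above. Cxcl12 was also lower in B-lineage-like (-0.86 ± 0.19), dendritic-like (-1.27 ± 0.26) and conventional dendritic-like cells (-1.28 ± 0.29; edgeR adjusted p = 0.0373, 0.0284 and 0.0418). Of all genes, 1.41%, 0.986% and 1.27% were called there in either direction. Igf1 was also lower in naive B-like (-1.06 ± 0.27) and pDC-like cells (-1.21 ± 0.30; edgeR adjusted p = 0.0392 and 0.0494). Of all genes, 2.11% and 1.3% were called there in either direction. In naive B-like cells 4 of 6 hepatocyte markers fell (summed 3766 to 5174 and 742 to 3301 CPM) and 3 of 3 erythroid markers tested rose (summed 722 to 1828 and 1481 to 3765 CPM), and in immature B-like cells 5 of 6 and 2 of 3 did so. The part of other cells' RNA in the values of these cell groups was not tested.

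No stage differed in its share of B-lineage-like cells past the threshold. Naive B-like cells were 15.8 ± 2.07% of control and 27.1 ± 9.29% of PIA B-lineage-like cells, from 12.7 to 17.9% and from 15.4 to 38.1%, and 5 of 6 PIA mice stood above every control (exact two-sided Mann-Whitney p = 0.026, adjusted p = 0.0974 over 6 stages). Cycling pre-B-like cells were 24.15 ± 3.01% and 18.05 ± 5.78%, and resting pre-B-like cells 26.8 ± 2.07% and 22.0 ± 4.59%, with 4 of 6 PIA mice below every control in each (adjusted p = 0.0974, exact). Without PIA mouse 6 the naive, cycling, resting and other Ms4a1+ shares passed (adjusted p = 0.026 for each, exact). Pro-B-like cells were 6.19 ± 0.85% and 6.50 ± 2.34% (adjusted p = 0.937, exact), and immature B-like cells differed by -1.42 points (adjusted p = 0.937, exact; from -2.15 to -0.31 on leaving out a mouse, the last without PIA mouse 5). At resolution 2 the naive share passed as higher (14.66 points) and the immature share as lower (-5.51 points; adjusted p = 0.0455 for each, exact). One of the naive B-like clusters, led by the stress genes Hspa1b and Hspa1a, held 549 control and 1438 PIA cells, and the part of this cluster in the share was not tested. As a share of all cells but the erythroid-like, the differences were -2.94 percentage points for cycling, -2.85 for resting and -1.25 for immature B-like cells, which passed the test (adjusted p = 0.026, 0.013 and 0.0303, exact), and 0.83 for naive B-like cells, which did not (adjusted p = 0.288, exact).

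**Figure D5:**
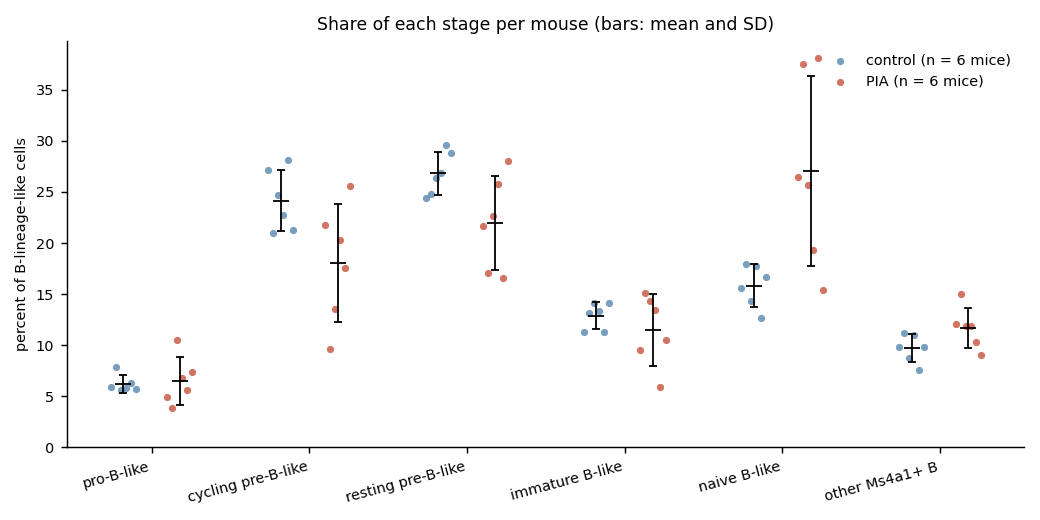
Share of each B stage (percent of B-lineage-like cells, axis from 0) in each mouse, 6 control and 6 PIA, with bars for mean and SD. Naive B-like shares of the PIA mice spread from 15.4 to 38.1% against 12.7 to 17.9% in controls, and pre-B-like shares reach lower in PIA mice.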

How the data were processed

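Single-cell libraries (10x 3′ chemistry, version 2 by the labels and 3.1 by the methods) of 12 neonatal livers were analysed. The deposited matrices hold raw UMI counts per gene and cell made by the authors with Cell Ranger 7.0.0 on mm10. Whether intronic reads were counted is not given in the sources used here. The libraries held 46252146 to 74545930 UMIs each, and the sums per mouse and cell group are smaller. Every test compared mice, so its precision rests on the spread between the mice of each group. Exact intervals on UMI counts were therefore not needed.

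The study's filter was applied: a cell needed 500 UMIs or more, 50000 or fewer, and a mitochondrial share not above 50%. Cells were clustered in scanpy 1.11.5 (Python 3.11.15; 2000 variable genes without the 9 genes, 20 components, 20 neighbours, Leiden resolution 2, and 1 for B-lineage-like cells) and named from marker lists. Stage thresholds on Erg, Ms4a1, Top2a, Ighd and Fcer2a were set after marker levels were seen. Doublets were called by comparison with simulated doublets (11.1 to 15.9% per library) and kept. UMIs were summed per mouse and cell group and tested with edgeR 4.0.16 (quasi-likelihood, TMM factors, genes averaging 5 UMIs or more, R 4.3.3), with limma 3.58.1 (voom) and DESeq2 1.42.0 as alternatives, and Benjamini-Hochberg adjustment over all genes tested. The test was checked on simulated data. Shares and differences of effects were compared with exact two-sided Mann-Whitney tests over 924 splits of the mice. Levels are CPM, the UMIs of a gene over all UMIs of that mouse and cell group on the usual scale. A share thinned to 1000 UMIs per cell leaves out shallower cells.

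The 9 genes are named in every comparison, and up to 4 called genes per pathway list with a level of at least 10 CPM. The genes, lists and tests were chosen with earlier results of these data known. All libraries carry 1 batch label, so no split by batch was made. Each library is 1 mouse, and the labels do not give litters.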

Additional observations from a re-analysis of the deposited data

Results flagged for a closer look

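Of 180 groups of 6 mice examined, 16 held a mouse far from the others, where chance gives about 1 in 20. In whole libraries PIA mouse 2 was low for Pax5 (33.8 CPM, others 68.4 to 78.1) and Ebf1 (382 CPM, others 863 to 1020), and it was low for Rag1 in pro-B-like cells (31.9 CPM, others 105 to 144). PIA mouse 5 was high for Il7r in pro-B-like (285 CPM, others 155 to 199) and cycling pre-B-like cells (321 CPM, others 243 to 254) and for Pax5 in B-lineage-like (668 CPM, others 486 to 546) and naive B-like cells (849 CPM, others 550 to 632). Among controls, mouse 3 was low for Rag1 in B-lineage-like cells (36.0 CPM, others 45.1 to 48.5) and high in NK-like cells for Il7r (12.6 CPM, others 6.12 to 7.99) and Igll1 (10.2 CPM, others 0.343 to 3.63). Control mouse 5 was high for Il7r in B-lineage-like cells (175 CPM, others 128 to 143), control mouse 6 for Igll1 in pDC-like cells (22.7 CPM, others 4.27 to 10.6), and control mouse 2 for the share of pro-B-like cells (7.84%, others 5.60 to 6.31%). PIA mouse 3 was high for Ebf1 in other Ms4a1+ B cells (3824 CPM, others 2958 to 3245), and PIA mouse 6 in T-like cells for Vpreb3 (19.4 CPM, others 0 to 4.96) and Igll1 (20.5 CPM, others 0 to 7.21).

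The effect of PIA on Il7r differed between cell groups in 3 of 9 pairs tested, a comparison chosen after the data were seen. It was larger than in pDC-like cells by 0.51 (log2) in pro-B-like and 0.46 in resting pre-B-like cells, and both held without any 1 mouse. In cycling pre-B-like cells it was smaller than in NK-like cells by -0.85 (exact adjusted p = 0.0455), and this was lost on leaving out any of 9 of the 12 mice.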

How the results depend on the processing

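No value of the 9 genes that was called in the main setting turned its direction under any alternative run. The genes of the pathway lists were tested in 1 setting only, and the cause of the changes below was not tested. Replicate numbers are shared by the groups, and whether they pair mice is not known, since litters are not given. Same-number deviations correlated from -0.185 to 0.549 in whole libraries, with 3 of 6 pairs over 0.1 and a mean of -0.0254 for other pairs. Of 6 controls 1 was closest to its own number there, 2 in B-lineage-like, 2 in resting pre-B-like and 3 in pDC-like cells. With a replicate block 1 gene of the 9 was called in pro-B-like cells (Il7r, 0.53, edgeR adjusted p = 0.0119) and 2 in resting pre-B-like cells (Igll1, 0.63, edgeR adjusted p = 0.0304), and no other count of calls moved. In whole libraries 2 genes were called without TMM factors (Vpreb3 and Pax5) and 1 with voom (Rag1). In pro-B-like cells 1 was called with DESeq2, without a filter, without doublets, at a mitochondrial share up to 10%, at the finer cluster resolution of 2 and with the 9 genes kept for clustering, and 0 to 1 on leaving out a mouse. In cycling pre-B-like cells 2 were called with voom and 0 to 1 without a mouse. In resting pre-B-like cells 2 were called without a filter, 3 with the 9 genes kept and 1 to 2 without a mouse. In immature B-like cells 3 were called at resolution 2 (Il7r, Rag1 and Igll1) and 1 with the 9 genes kept (Igll1), and without a filter 1 was called in naive B-like, dendritic-like, pDC-like and cDC-like cells each. Leaving out a mouse gave 0 to 1 in dendritic-like (Ebf1, without PIA mouse 4) and NK-like cells, and with doublets left out Ebf1 was at -0.05 and Pax5 at 0.01 in dendritic-like cells, and Ebf1 in cDC-like cells turned from -0.70 without a filter, where it was called, to 0.30, and DESeq2, voom and no filter gave 1 in NK-like cells. As shares of all cells but the erythroid-like, PIA minus control differences were -0.33 points for pro-B-like, -2.94 for cycling, -2.85 for resting, -1.25 for immature, 0.83 for naive and -0.37 for other Ms4a1+ B cells. As shares of B-lineage-like cells they were -5.51 for immature and 14.66 for naive B-like cells at resolution 2, and ranged on leaving out a mouse from -0.49 to 0.85 for pro-B-like, -7.60 to -4.42 for cycling, -6.07 to -3.78 for resting, 9.05 to 13.6 for naive and 1.32 to 2.50 for other Ms4a1+ B cells. Depth limits Rag2 (1770 UMIs) and Dntt outside pro-B-like cells, among others.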
